A study of Mus musculus with 8 samples.

Results

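The left ventricle of mice shortly after giving birth was compared with the left ventricle at mid-pregnancy. The comparison used 4 of the 8 arrays of the series, chosen by their titles: 2 arrays of post-partum day 1.5 (replicates 2 and 4) and 2 arrays of pregnancy day 12 (replicates 2 and 3). All were from female C57BL/6 mice aged 3 to 4 months, bought non-pregnant or timed pregnant and killed under isoflurane. RNA came from a single piece of the dissected left ventricle, and 100 ng of total RNA was labelled for each Affymetrix array. The other 4 arrays, 2 from late pregnancy and 2 from non-pregnant mice in diestrus (a resting phase of the oestrous cycle), were not in the test. The diestrus arrays are the study's reference, so their values are given beside some genes for orientation. The labels do not say how many animals stand behind the arrays, so p-values here measure the spread between these samples, which may be technical.

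Pregnancy imposes a volume load on the heart, and the ventricle enlarges reversibly, with growth of cardiomyocytes and of the vessels around them. Late in pregnancy and during lactation the mother's tissues handle more fat, and the heart draws most of its energy from fatty acids taken up, carried into mitochondria and oxidised there. After birth the load falls within days and the ventricle remodels again. Remodelling involves the extracellular matrix, a mesh of collagens and associated glycoproteins that is laid down mainly by fibroblasts and trimmed by proteases and their inhibitors.

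The labelled tissue was checked first. The 10 cardiomyocyte markers averaged between 11.38 and 11.56 on the log2 scale on the 4 arrays. Day 12 replicate 3 stood above the other 3 arrays in some markers of the atrium and of valve or cartilage tissue. The atrial list averaged 8.16 on that array, against 7.11 on day 12 replicate 2 and 7.03 and 7.21 post-partum. The valve and cartilage list averaged 7.24 there, against 6.37, 6.58 and 6.67. Not all members followed, and Nppa, Kcnj3 and Col2a1 read lowest on that array. The atrial light chain gene Myl7 read 10.04 on that array, against 4.69 on day 12 replicate 2 and 4.63 and 4.81 post-partum. Sarcolipin (Sln), another atrial gene, read 7.89 there against 4.28, 4.30 and 3.75. Cytl1 read 10.76 against 9.13, 9.12 and 9.57, and Chad read 6.28 against 4.98, 5.33 and 5.05. Diestrus replicate 3, outside the test, was also high in them, with Myl7 at 8.24, Sln at 6.21, Cytl1 at 10.99 and Chad at 6.78. Diestrus replicate 2 read 5.12, 4.51, 9.53 and 5.15. The diestrus values below include both arrays. The part of these markers in the other results was not tested, and values without day 12 replicate 3 are given where they matter. Over all probe sets, tested or not, the SD of the difference was 0.28 between the day 12 arrays and 0.35 between the post-partum arrays. Between an array of 1 group and an array of the other it was 0.31 to 0.41. The wider spread lay on the side of post-partum replicate 2, which stood farther from both day 12 arrays (0.39 and 0.41) than post-partum replicate 4 did (0.31 and 0.33).

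No gene passed the test. Of 13485 genes with a mean log2 value of at least 5.19 in either group, 0 had an adjusted p under 0.05 by limma with Benjamini-Hochberg adjustment (0% called), and the smallest adjusted p was 0.085, for Ccl2. At an unadjusted p under 0.05, 1549 genes differed (11.5%), 687 of them higher post-partum (5.09%) and 862 lower (6.39%). The same fit with all 8 arrays, with trend and robust variance estimates, or with array weights also called 0 genes, and the fit of 6 arrays without day 19 called 2, Ccl2 and Col8a1. Leaving out single arrays gave 6 genes without day 12 replicate 2, 0 without day 12 replicate 3, 9 without post-partum replicate 2 and 762 without post-partum replicate 4, where the lone array is assumed to vary like the other pair. With 2 arrays against 2, an exact two-sided permutation test of a single gene cannot go below p = 0.33. The genes below are therefore described as higher or lower by their values, and none is called changed.

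By size, 63 genes were at least 2-fold apart with groups that did not overlap (0.467% of those tested), 39 higher post-partum (0.289%) and 24 lower (0.178%). This count was 125 without day 12 replicate 2, 76 without day 12 replicate 3, 72 without post-partum replicate 2 and 240 without post-partum replicate 4. Lack of overlap alone is common with 2 arrays a group: both post-partum arrays lay above both day 12 arrays for 20.6% of genes and below them for 26.3%. The median difference over all genes was -0.03. A difference of 1 on this log2 scale is a 2-fold ratio.

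**Figure D1:**
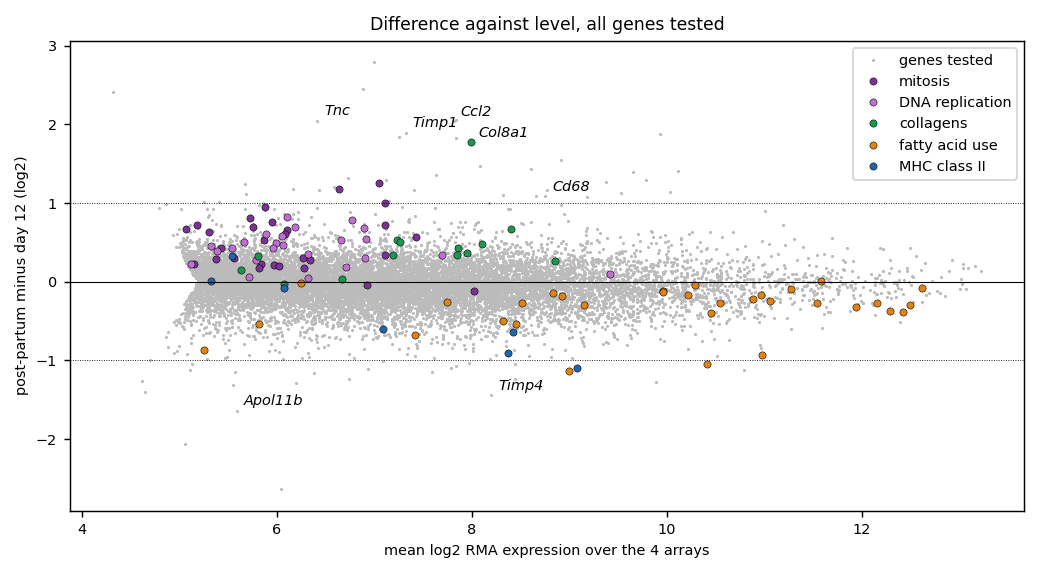
Each point is a gene tested: the horizontal axis is its mean log2 RMA expression over the 4 arrays and the vertical axis is post-partum minus day 12 (log2), with dotted lines at a 2-fold difference. Mitosis and DNA replication genes lie mostly above 0 at low to middle levels, and fatty acid genes mostly below 0 at high levels; Tnc (2.05), Ccl2 (2.04), Timp1 (1.89) and Col8a1 (1.78) are among the highest.

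**Figure D2:**
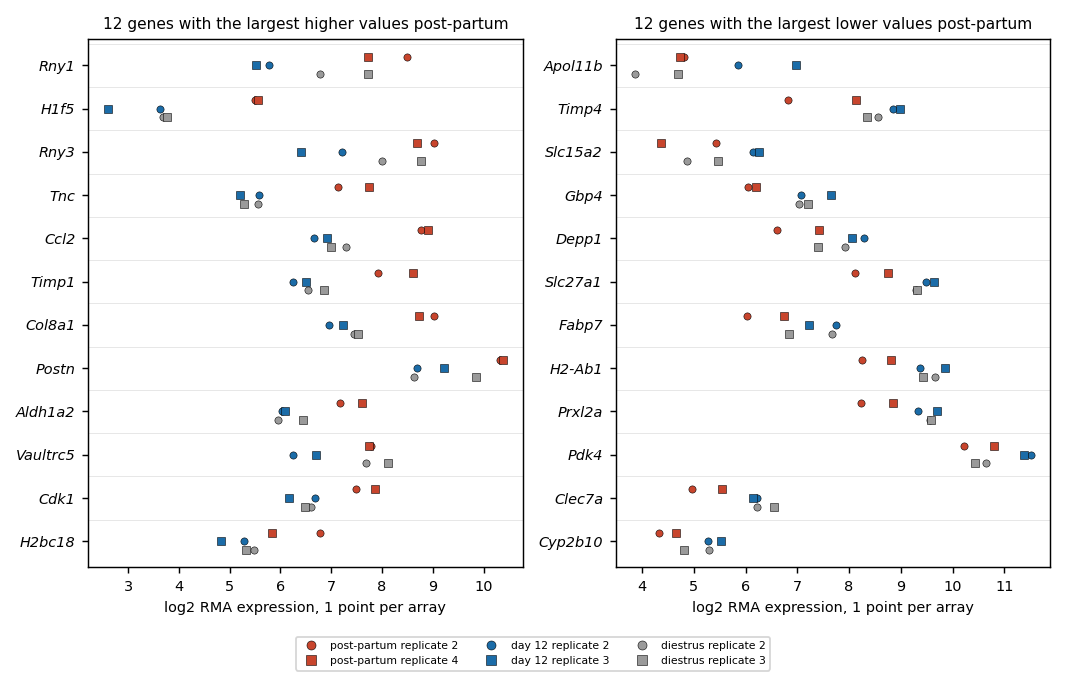
Log2 RMA expression of the 12 named genes with the largest higher values post-partum (left) and the 12 with the largest lower values (right), 1 point per array, with the diestrus arrays in grey. The post-partum and day 12 points of a gene do not overlap, and for Rny3, Vaultrc5, Pdk4, Apol11b and Slc15a2 both diestrus points lie nearer the post-partum mean than the day 12 mean.

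Among the 33 pathway lists, mitosis and DNA replication had the highest medians post-partum. Of 29 mitosis genes tested (35 on the array), 27 were higher post-partum, 18 of them without overlap and 15 at an unadjusted p under 0.05, beside 20.6% and 5.09% of all genes. Of 24 DNA replication genes tested (26 on the array), all 24 were higher, 21 without overlap and 17 at an unadjusted p under 0.05. Among the 24, Mcm10, Cdc6 and Prim1 passed the filter through the post-partum group only, so they had to be higher. Mcm10 and Cdc6 are also in the 21 and the 17. The median difference was 0.53 for mitosis and 0.44 for DNA replication, against -0.03 for all genes. The mitosis median was 0.31 without post-partum replicate 4 and 0.65 without post-partum replicate 2; the DNA replication median lay between 0.32 and 0.54 without each array in turn.

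Cdk1, the kinase that drives entry into mitosis, read 6.68 and 6.16 at day 12 and 7.48 and 7.87 post-partum, a difference of 1.25 ± 0.22 (SE). Ccna2, a cyclin partner of that kinase, read 6.27 and 5.83 at day 12 and 7.23 and 7.23 post-partum, a difference of 1.18 ± 0.17. Ube2c, which helps to mark mitotic cyclins for destruction, read 6.72 and 6.77 at day 12 and 7.54 and 7.38 post-partum, a difference of 0.72 ± 0.13. For these 3 genes both post-partum arrays lay above both arrays of day 12 and both of diestrus, where Cdk1 read 6.59 and 6.48. Mki67, the proliferation marker, was 1.00 ± 0.27 higher, from 6.95 and 6.26 to 7.38 and 7.84, and only 0.65 higher without day 12 replicate 3. Top2a, which untangles replicated DNA, read 5.63 and 5.16 at day 12 and 6.04 and 6.66 post-partum. Among replication genes, E2f1, a transcription factor of the S-phase programme, read 5.66 and 5.71 at day 12 and 6.46 and 6.57 post-partum, a difference of 0.83 ± 0.13. Mcm5 and Mcm6, parts of the helicase that opens DNA, were 0.79 ± 0.16 and 0.69 ± 0.15 higher. Pcna, the sliding clamp of the polymerase, overlapped between the groups, with a difference of 0.10 ± 0.15. Both post-partum arrays lay above all day 12 and diestrus arrays for 18 of 24 replication genes and 16 of 29 mitosis genes, where 12.1% of all genes did. The replication count again holds Mcm10 and Cdc6, which passed the filter through the post-partum group only. The arrays do not say which cells carried the transcripts.

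The promoters of the mitosis genes are shown because 27 of the 29 genes were higher together and many of their promoters hold the same short elements. CCAAT is bound by the factor NF-Y, and TTTGAA is the core of the cell cycle homology region found in promoters of late cell cycle genes. Both were searched on either strand in RefSeq windows (GRCm38.p6) of 250 bases before to 50 after each gene's start, counting overlapping matches apart. Of the 29 mitosis genes, 24 had a window, and TTTGAA was in 21 of them (87.5%), against 18.1% of 27025 promoters and 11.5% of the 10596 promoters of genes tested. CCAAT was in 19 of the 24 (79.2%), against 37.9% and 37.6%. CCAAT was as common in lists that were not higher, at 17 of 20 endoplasmic reticulum chaperones (85.0%) and 13 of 14 cholesterol synthesis genes (92.9%). Of the 24 DNA replication genes, 21 had a window, with CCAAT in 13 (61.9%) and TTTGAA in 1 (4.76%). The windows of the mitosis genes with the smallest p among those listed follow in lower case, 5′ to 3′ along the gene's strand, with CCAAT and TTTGAA matches of either strand in capitals. Cdk1 (chr10:69352863-69353162, minus strand) holds 3 CCAAT and 2 TTTGAA matches, and Ube2c (chr2:164769679-164769978, plus strand) holds 6 and 1.
Cdk1: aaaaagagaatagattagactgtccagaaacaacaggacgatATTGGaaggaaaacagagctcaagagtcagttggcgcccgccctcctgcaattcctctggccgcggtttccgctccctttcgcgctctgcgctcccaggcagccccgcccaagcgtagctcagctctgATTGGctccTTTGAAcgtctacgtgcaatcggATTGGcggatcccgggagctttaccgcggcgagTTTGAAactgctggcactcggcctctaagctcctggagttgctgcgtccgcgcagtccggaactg
Ube2c: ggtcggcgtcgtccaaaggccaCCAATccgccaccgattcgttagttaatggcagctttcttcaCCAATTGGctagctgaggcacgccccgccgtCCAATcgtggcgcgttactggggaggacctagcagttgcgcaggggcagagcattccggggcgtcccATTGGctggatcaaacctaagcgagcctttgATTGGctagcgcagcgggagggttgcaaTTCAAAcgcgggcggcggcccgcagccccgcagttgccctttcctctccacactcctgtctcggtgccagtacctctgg
A match is a description of the letters in the window and does not show binding in these hearts.

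Histone genes, whose proteins package newly made DNA, included some of the largest single differences. H1f5, a linker histone, read 3.62 and 2.60 at day 12 and 5.49 and 5.56 post-partum, so only the post-partum mean passed the filter on low values. H2bc18, a core histone, read 5.28 and 4.84 at day 12 and 6.77 and 5.82 post-partum. Its day 12 mean of 5.06 also lay under the filter level of 5.19, and its difference of 1.24 was 0.77 without post-partum replicate 2. Of 11 histone genes tested, 8 were higher, 7 without overlap (20.6% of all genes), a count that holds both genes that passed the filter through the post-partum group only. The list was collected by gene name after values had been seen.

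Extracellular matrix genes made up the next group that was higher post-partum than at day 12, and the position of diestrus varied among them. Tnc encodes tenascin C, a matricellular glycoprotein made in remodelling tissue. It read 5.57 and 5.21 at day 12 and 7.13 and 7.75 post-partum, a 4.14-fold ratio and a difference of 2.05 ± 0.24. Diestrus read 5.56 and 5.29, below both post-partum arrays and level with day 12. Postn, or periostin, a matricellular protein of activated fibroblasts, read 8.68 and 9.22 at day 12 and 10.32 and 10.38 post-partum, a difference of 1.40 ± 0.20. Mfap5, a microfibril protein, was 1.07 ± 0.21 higher, and Cilp, a matrix protein of cartilage and heart, was 1.19 ± 0.34 higher (0.74 without post-partum replicate 4). Of 25 matricellular proteins and glycoproteins tested, 18 were higher, 11 without overlap (20.6% of all genes). The median difference was 0.27 (0.16 without post-partum replicate 4). Both post-partum arrays lay above all day 12 and diestrus arrays for 8 (12.1% of all genes). Both day 12 arrays lay below all post-partum and diestrus arrays for 6 (6.59% of all genes), and a gene can be in both counts. Thrombospondin 2 (Thbs2) was the member lower at an unadjusted p under 0.05, with 7.85 and 7.96 at day 12 and 7.24 and 7.53 post-partum. Ccn2, or connective tissue growth factor, was 0.67 ± 0.22 higher by its brighter probe set and -0.58 apart by its dimmer one, and it was 0.42 higher without day 12 replicate 2.

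Collagens were mostly higher. Col8a1, a short-chain collagen of vessel walls and injured tissue, read 6.96 and 7.23 at day 12 and 9.02 and 8.73 post-partum, a 3.43-fold ratio and a difference of 1.78 ± 0.17. Col1a1, the main fibrillar collagen chain, read 8.06 and 8.07 at day 12 and 8.65 and 8.82 post-partum, a difference of 0.67 ± 0.13. Col3a1, which forms thinner fibrils, read 7.90 and 7.82 at day 12 and 8.39 and 8.29 post-partum, a difference of 0.48 ± 0.13. Of 14 collagen genes tested, 13 were higher. Among them, 10 were higher without overlap and 5 at an unadjusted p under 0.05, beside 20.6% and 5.09% of all genes. Both post-partum arrays of 8 lay above all day 12 and diestrus arrays, where 12.1% of all genes did. The median difference of 0.36 was 0.18 without post-partum replicate 4 and 0.51 without post-partum replicate 2. Col5a1 was 0.54 ± 0.13 higher by its brighter probe set, while its dimmer probe set differed by -0.24.

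The enzymes that mature collagen followed in part. Lysyl oxidases cross-link fibrils: Lox read 4.95 and 4.94 at day 12 and 5.61 and 5.84 post-partum, and Loxl1 read 8.21 and 8.25 at day 12 and 8.99 and 8.98 post-partum. The Loxl1 difference was 0.76 ± 0.12. For Lox the diestrus arrays read 5.53 (replicate 2) and 6.95 (replicate 3, the array with high atrial and valve markers). The day 12 pair was thus the low one, and the day 12 mean of Lox lay under the filter level. Of 17 enzymes of collagen processing tested, 12 were higher, 10 of them without overlap (20.6% of all genes). The median difference was 0.20 (0.13 without day 12 replicate 3). Both post-partum arrays lay above all day 12 and diestrus arrays for 7 of the 17 (12.1% of all genes). Both day 12 arrays lay below all post-partum and diestrus arrays for 6 (6.59% of all genes). Of 9 genes of versican and the small proteoglycans that coat fibrils, 8 were higher, 6 without overlap (20.6% of all genes). The median was 0.37 (0.24 without day 12 replicate 2). Both day 12 arrays lay below all post-partum and diestrus arrays for 5 of the 9 (6.59% of all genes). Both post-partum arrays lay above all day 12 and diestrus arrays for 3 (12.1% of all genes). Minus the day 12 mean, the list averaged 0.34 and 0.22 post-partum and 0.17 and 0.43 on diestrus replicates 2 and 3. Versican (Vcan), a large proteoglycan of provisional matrix, was 0.78 ± 0.13 higher, from 6.82 and 6.75 to 7.51 and 7.62. Decorin (Dcn), which binds collagen fibrils, read 12.35 and 12.60 at day 12 and 12.44 and 12.52 post-partum, which overlap. It is among the 8 counted as higher, at a difference of 0.00.

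Inhibitors of matrix proteases went in opposite directions. Timp1, the inducible inhibitor of metalloproteinases, read 6.24 and 6.50 at day 12 and 7.93 and 8.60 post-partum, a 3.72-fold ratio and a difference of 1.89 ± 0.24. Timp4, the inhibitor typical of heart, read 8.85 and 8.99 at day 12 and 6.81 and 8.13 post-partum, a difference of -1.44 ± 0.39. The Timp4 difference was -0.78 without post-partum replicate 2 and -2.10 without post-partum replicate 4. Timp2 and Timp3 overlapped, at 0.01 ± 0.18 and -0.04 ± 0.17. Plau, the urokinase protease, was 0.58 ± 0.14 higher, and Mmp2, a gelatinase, overlapped (-0.39 ± 0.25, and 0.00 without post-partum replicate 2).

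Fibroblast markers are given beside these matrix genes, since a bulk sample cannot tell fewer cells of a type from less RNA per cell. The marker list shares members with the matrix lists, so it is not independent of them. Of 15 fibroblast markers, 8 were higher and 7 lower, with a median of 0.03 (-0.09 without post-partum replicate 4 and 0.37 without post-partum replicate 2). The summed level, as a mean over the list, was 8.48 and 8.60 at day 12 and 8.51 and 8.91 post-partum, which overlap. Of the 6 that were higher without overlap (20.6% of all genes), Mfap5, Col1a1, Col3a1, Lum and Col1a2 encode matrix proteins and are in the matrix lists above. Meox1, the other, encodes a transcription factor. Scara5 was the 1 marker lower without overlap (26.3% of all genes), at -0.59 ± 0.23. Pdgfra, the receptor that defines cardiac fibroblasts, read 8.96 and 9.01 at day 12 and 8.77 and 9.06 post-partum, and Tcf21, their transcription factor, was 0.03 ± 0.15 apart. The part of fibroblast number in the matrix values was not tested.

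Chemoattractant and macrophage genes showed large differences in few members. Ccl2, the chemokine that draws monocytes, read 6.66 and 6.92 at day 12 and 8.76 and 8.90 post-partum, a 4.12-fold ratio and a difference of 2.04 ± 0.15. Diestrus read 7.28 and 6.99, also below both post-partum arrays. Ccl11, an eosinophil chemokine, was 0.72 ± 0.13 higher, and Tnf, the inflammatory cytokine, was 0.51 ± 0.13 higher at a low level of 6.35 and 6.45. Of 20 chemokine and acute-phase genes tested, 12 were higher, 6 without overlap (20.6% of all genes). Cxcl1, among those 6, had a day 12 mean under the filter level and was tested through the post-partum group only. The median of the list was 0.08, and it was -0.05 without post-partum replicate 4 and 0.26 without post-partum replicate 2. Cd68, a lysosomal protein of macrophages, read 8.18 and 8.23 at day 12 and 9.37 and 9.22 post-partum, a difference of 1.09 ± 0.13. Over 16 macrophage markers, 10 were higher and 6 lower, with a mean level of 8.05 and 8.15 at day 12 and 8.03 and 8.41 post-partum. Csf1r, the receptor that macrophages depend on, overlapped (-0.04 ± 0.19). Cd163, a scavenger receptor of resident macrophages, was -0.57 ± 0.16 apart, without overlap. The neutrophil markers S100a8, S100a9 and Ly6g were under the filter on both groups of arrays.

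Aldh1a2, the enzyme that makes retinoic acid, read 6.04 and 6.09 at day 12 and 7.18 and 7.60 post-partum, a 2.50-fold ratio. Hmox1, or heme oxygenase, was 0.88 ± 0.17 higher, from 5.67 and 5.87 to 6.49 and 6.82. Stat3, the transcription factor downstream of interleukin 6 family cytokines, was 0.51 ± 0.13 higher, from 10.11 and 10.05 to 10.63 and 10.54. Its feedback inhibitor Socs3 was 0.47 ± 0.13 higher, with a second probe set at 0.44. For all 4 genes both post-partum arrays also lay above both diestrus arrays; Socs3 read 5.97 and 6.05 at day 12, 6.54 and 6.42 post-partum and 6.12 and 6.30 in diestrus.

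Load-responsive genes of the cardiomyocyte leaned the same way with smaller differences. Of 17 hypertrophy markers tested, 14 were higher, 6 without overlap and 5 at an unadjusted p under 0.05, beside 20.6% and 5.09% of all genes, with a median of 0.20 (0.33 without day 12 replicate 3). Nmrk2, an NAD salvage kinase induced in stressed muscle, read 6.57 and 6.03 at day 12 and 6.99 and 7.40 post-partum, a difference of 0.89 ± 0.23. Rcan1, a target and regulator of calcineurin, read 8.63 and 8.56 at day 12 and 9.56 and 9.19 post-partum, a difference of 0.78 ± 0.16. Nppb, the B-type natriuretic peptide, was 0.46 ± 0.15 higher, and 0.31 without post-partum replicate 2. Acta1, the skeletal actin of the fetal gene programme, was 0.56 ± 0.21 higher, and 0.31 without post-partum replicate 2. Nppa, the atrial natriuretic peptide, overlapped: 11.23 and 11.13 at day 12, 11.21 and 12.02 post-partum. Its difference was 0.44 ± 0.26, and 0.03 without post-partum replicate 4. Myh7, the slow myosin heavy chain, also overlapped, at 6.32 and 6.97 against 7.56 and 6.88; its difference was 0.23 without post-partum replicate 2. Myh6, the main adult myosin heavy chain, was 0.07 ± 0.13 apart. Of 23 sarcomere genes, 14 were higher and 9 lower, with a median of 0.03.

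**Figure D3:**
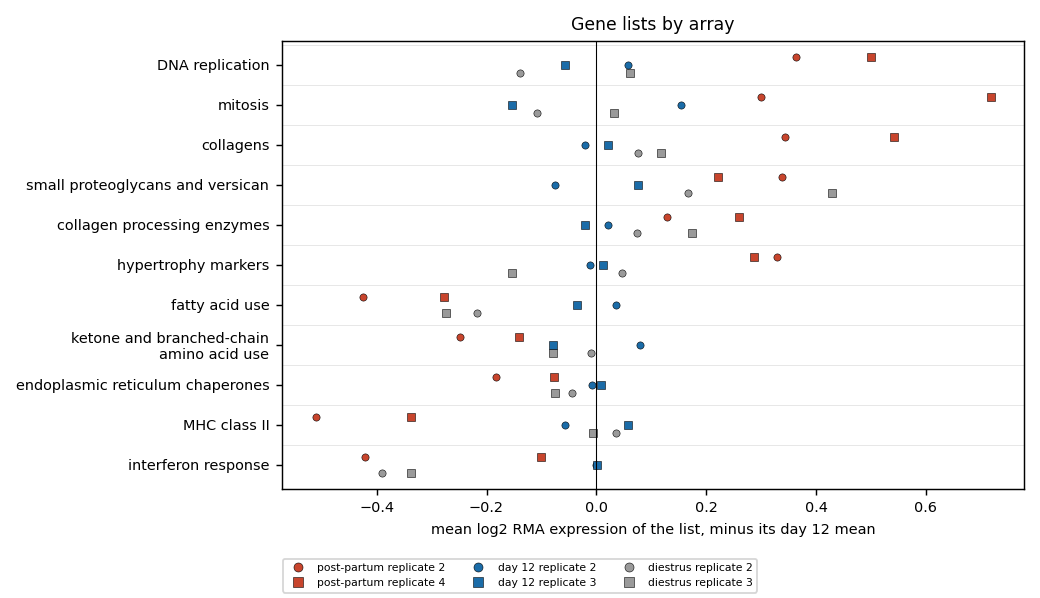
For 11 gene lists, the mean log2 RMA expression over the members tested is plotted for each array, minus the mean of the day 12 arrays, with diestrus in grey. Both post-partum arrays lie right of the day 12 arrays for the cell division, matrix and hypertrophy lists and left of them for the fatty acid, ketone, chaperone, MHC class II and interferon lists.

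Genes of fatty acid use formed the most uniform group that was lower post-partum. Of 32 tested, 31 were lower, 24 without overlap and 10 at an unadjusted p under 0.05, beside 26.3% and 6.39% of all genes. The median difference was -0.27 and lay between -0.33 and -0.22 without each array in turn. Slc27a1, a fatty acid transporter at the cell surface, read 9.48 and 9.65 at day 12 and 8.12 and 8.75 post-partum, a difference of -1.13 ± 0.22. Acot2 and Acot1 are thioesterases that release fatty acids from coenzyme A in mitochondria and cytosol. Acot2 read 10.92 and 10.95 at day 12 and 9.22 and 10.56 post-partum, and Acot1 read 5.64 and 5.73 at day 12 and 4.66 and 4.97 post-partum, where its mean lay under the filter level. The Acot2 difference of -1.05 ± 0.40 was -0.38 without post-partum replicate 2 and -1.72 without post-partum replicate 4. Pdk4, the kinase that shuts off glucose oxidation when fat is burnt, read 11.51 and 11.38 at day 12 and 10.23 and 10.80 post-partum, a difference of -0.93 ± 0.21. Ucp3, a mitochondrial carrier linked to fatty acid supply, read 7.85 and 7.65 at day 12 and 7.09 and 7.07 post-partum.

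The other genes of fatty acid use given here, among them enzymes of the oxidation pathway, had smaller differences. The genes above were named for large differences or small p-values, so this contrast was set by the choice. Cd36, the main fatty acid translocase, was -0.38 ± 0.16 apart, and the dehydrogenases Hadh and Acadm were -0.39 ± 0.16 and -0.29 ± 0.13 apart. Acadl, the long-chain dehydrogenase, was the 1 member that was not lower, at 0.00 ± 0.12. The co-activator Ppargc1a was -0.39 ± 0.15 apart, while the receptor Ppara was -0.26 ± 0.17 apart. Without post-partum replicate 2 these differences were -0.18 for Cd36, -0.22 for Hadh, -0.24 for Ppargc1a and -0.05 for Ppara. Angptl4, an inhibitor of lipoprotein lipase, was -0.53 ± 0.17 apart, and -0.32 without day 12 replicate 2. Plin5, which coats lipid droplets, was -0.53 ± 0.15 apart. The position of diestrus varied over the list. Both day 12 arrays stood above all post-partum and diestrus arrays for 20 of 32 genes, where 10.3% of all genes did, and both post-partum arrays stood below all others for 10, where 14.7% did. Pdk4 read 10.65 and 10.44 in diestrus, near the post-partum arrays, whereas Slc27a1 read 9.29 and 9.31, near day 12.

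The element AGGTCA, the half-site bound by PPAR and related nuclear receptors, is shown for this group because those receptors control many of its members. Of 29 fatty acid genes with a promoter window, 8 held AGGTCA on either strand (27.6%), against 16.0% of all promoters and 12.1% of those of genes tested. The share was similar in lists that were not lower. It was 3 of 12 fatty acid synthesis genes (25.0%) and 3 of 12 chemokine and acute-phase genes (25.0%). Ucp3 (chr7:100472741-100473040, plus strand) holds 2 matches, in capitals.
Ucp3: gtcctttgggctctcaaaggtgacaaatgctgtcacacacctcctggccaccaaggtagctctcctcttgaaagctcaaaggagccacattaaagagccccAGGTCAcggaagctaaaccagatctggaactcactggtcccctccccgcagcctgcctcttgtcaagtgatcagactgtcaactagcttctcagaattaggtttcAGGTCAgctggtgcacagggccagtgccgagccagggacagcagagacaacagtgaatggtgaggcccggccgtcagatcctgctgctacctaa
Most members of the list hold no match in this window.

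Genes for the use of ketone bodies and branched-chain amino acids were also mostly lower. Of 18 tested, 14 were lower, 12 without overlap and 6 at an unadjusted p under 0.05, beside 26.3% and 6.39% of all genes, with a median of -0.25. Oxct1, which activates ketone bodies for oxidation, read 11.14 and 11.10 at day 12 and 10.51 and 10.83 post-partum, and was -0.28 apart without post-partum replicate 2. Mmut and Pcca, which carry branched-chain breakdown products into the citric acid cycle, were -0.45 ± 0.15 and -0.44 ± 0.14 apart. Bdh1, which interconverts ketone bodies, was among the 4 that were higher, but its arrays overlapped, and it was -0.05 apart without day 12 replicate 3. Respiratory chain genes did not stand out: 17 were higher and 22 lower of 39, with a median of -0.07. Of 22 genes of glucose use, 8 were higher and 14 lower, with a median of -0.02. Pdha1, a subunit of the pyruvate dehydrogenase that Pdk4 inhibits, was -0.43 ± 0.13 apart, from 10.94 and 10.92 to 10.43 and 10.58.

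Most MHC class II genes, which present antigen on macrophages, dendritic cells and B cells, were lower. H2-Ab1 read 9.38 and 9.86 at day 12 and 8.25 and 8.80 post-partum, a difference of -1.09 ± 0.24. H2-Aa, its partner chain, read 8.64 and 9.02 at day 12 and 7.81 and 8.03 post-partum, a difference of -0.91 ± 0.17. H2-Eb1 was -0.64 ± 0.20 apart, and -0.36 without day 12 replicate 3. Of 7 tested, 5 were lower, 4 without overlap (26.3% of all genes), with a median of -0.60 that was -0.30 without post-partum replicate 2. For those 4 (the 3 above and H2-DMa, which loads peptide), both post-partum arrays lay below all day 12 and diestrus arrays (14.7% of all genes). The transcriptional regulator of the family, Ciita, overlapped (-0.07 ± 0.14), and H2-Ob, a modulator of peptide loading, was 0.32 ± 0.14 higher without overlap. Clec7a, a fungal pattern receptor of myeloid cells, was -0.93 ± 0.21 apart. The mean level of the macrophage markers, given above, overlapped between the groups, and its part in these values was not tested.

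Most interferon-induced genes were lower, but the share without overlap was no larger than over all genes. Of 19 tested, 15 were lower but 5 without overlap (26.3%, beside 26.3% of all genes), and the median of -0.24 was -0.01 without post-partum replicate 2. Minus the day 12 mean, the list averaged -0.42 and -0.10 post-partum and -0.39 and -0.34 in diestrus. Both day 12 arrays lay above all post-partum and diestrus arrays for 5 (10.3% of all genes). Both post-partum arrays lay below all day 12 and diestrus arrays for 1 (14.7% of all genes). Iigp1 and Gbp3, GTPases of cell-autonomous immunity, were -0.79 ± 0.14 and -0.80 ± 0.17 apart. Gbp4, of the same GTPase family, read 7.07 and 7.65 at day 12 and 6.04 and 6.20 post-partum, a difference of -1.24 ± 0.21. Rsad2, the antiviral protein viperin, was -0.82 ± 0.24 apart, and -0.47 without post-partum replicate 2. Apol11b, of the apolipoprotein L family, read 5.85 and 6.97 at day 12 and 4.81 and 4.73 post-partum. Its post-partum mean of 4.77 lay under the filter level, so it was tested through day 12 only; its difference of -1.64 was -1.08 without day 12 replicate 3.

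Other genes that were lower belong to transport, stress and lipid handling. Slc15a2, a peptide transporter, read 6.14 and 6.26 at day 12 and 5.43 and 4.36 post-partum, where its mean of 4.89 lay under the filter level. Depp1, a target of FOXO transcription factors, read 8.28 and 8.05 at day 12 and 6.61 and 7.42 post-partum. Fabp7, a fatty acid binding protein typical of glia, read 7.75 and 7.22 at day 12 and 6.02 and 6.73 post-partum. Without 1 array the Slc15a2 difference of -1.31 was -0.77 (post-partum replicate 4) and the Depp1 difference of -1.15 was -0.74 (post-partum replicate 2). Scd4, a fatty acid desaturase, was -0.86 ± 0.13 apart, from 7.26 and 7.39 to 6.42 and 6.51. Of 23 endoplasmic reticulum chaperone and stress genes, 18 were lower, 10 without overlap (26.3% of all genes), with a median of -0.16 (-0.06 without post-partum replicate 2). Hsp90b1, the endoplasmic chaperone of the HSP90 family, was -0.47 ± 0.13 apart.

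Vessel and clock genes gave smaller values. Tek and Tie1, the angiopoietin receptor pair of endothelium, were -0.56 ± 0.18 and -0.40 ± 0.13 apart, and Tek was -0.36 without post-partum replicate 2. Of 14 endothelial markers 10 were lower, 6 without overlap (26.3% of all genes), with a median of -0.11 (-0.03 without post-partum replicate 2). The mean levels of these markers were 9.32 and 9.28 at day 12 against 9.11 and 9.25 post-partum. The contractile smooth muscle genes Cnn1 and Myh11 were -0.53 ± 0.13 and -0.38 ± 0.13 apart. Acta2, also contractile, overlapped (0.18 ± 0.26), and Cspg4, a pericyte proteoglycan, was 0.42 ± 0.17 higher without overlap (0.25 without day 12 replicate 3). Of 13 pericyte and smooth muscle markers, 4 were higher and 9 lower, 1 and 6 without overlap (20.6% and 26.3% of all genes). The median of these markers was -0.17 (-0.04 without day 12 replicate 2). Arntl and Clock, the activating pair of the circadian clock, were -0.72 ± 0.17 and -0.73 ± 0.27 apart, and Clock was -0.32 without post-partum replicate 2. The list as a whole did not share their direction: 12 of 17 clock genes were higher, 4 without overlap (23.5%, beside 20.6% of all genes). The median of the list was 0.10 (0.02 without day 12 replicate 2). Ciart, a repressor of that pair, was 0.63 ± 0.16 higher, and Per1, another repressor, was 0.32 ± 0.17 higher (0.16 without day 12 replicate 2), both without overlap. Arntl read 8.39 and 5.82 on the diestrus arrays, a wider gap than between the groups compared. Time of day is not in the labels. Car2 and Slc4a1, carbonic anhydrase and anion exchanger of red cells, were -0.80 ± 0.16 and -0.66 ± 0.19 apart, and Slc4a1 was -0.40 without day 12 replicate 3. Other members of the same red cell list were higher without overlap: Tfrc, the transferrin receptor that takes up iron, by 0.86 ± 0.20, and Ank1, a membrane skeleton protein, by 0.72 ± 0.17 on its brighter probe set and 0.01 on its dimmer one. Of 6 red cell genes tested, 2 were higher and 4 lower, so the list had no common direction.

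**Figure D4:**
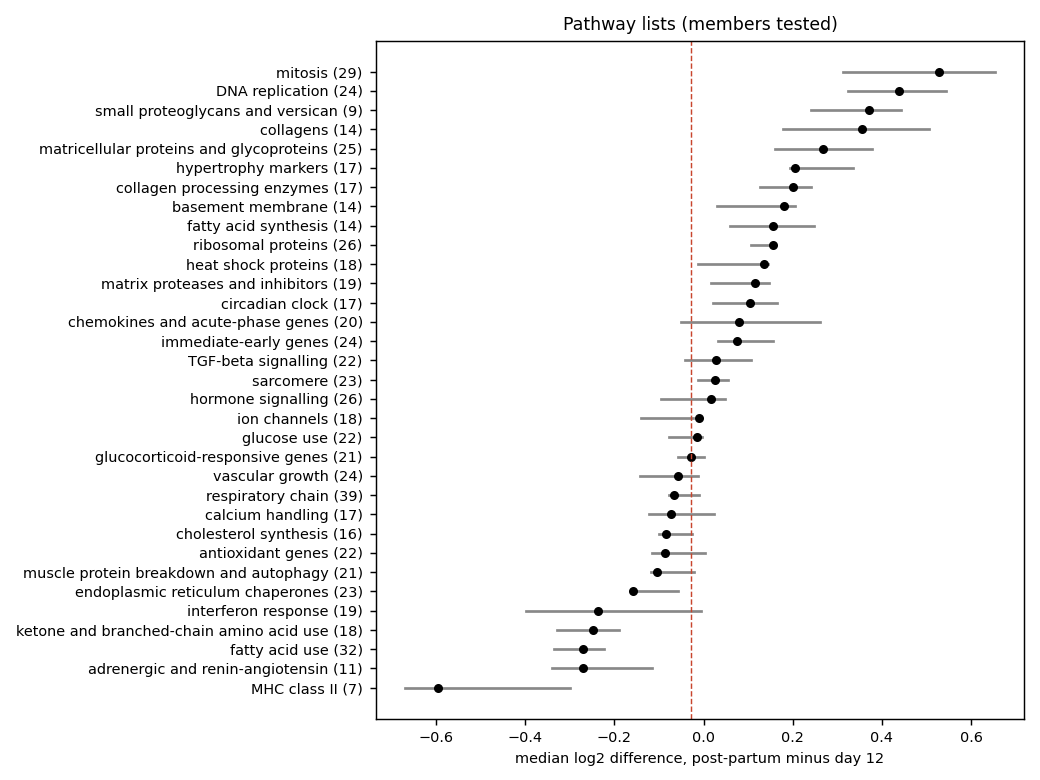
Median difference, post-partum minus day 12 (log2), of the 33 pathway lists, with the number of members tested in brackets. Grey lines span the lowest and highest median when each of the 4 arrays is left out in turn, and the dashed red line is the median of all genes (-0.03); mitosis (0.53) and DNA replication (0.44) are at the top and MHC class II (-0.60) at the bottom.

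Small non-coding RNA genes included some of the largest differences. Rny1 and Rny3 encode Y RNAs, partners of the Ro60 protein. Rny1 read 5.78 and 5.53 at day 12 and 8.48 and 7.73 post-partum, a difference of 2.45 ± 0.26, and Rny3 read 7.21 and 6.41 at day 12 and 9.03 and 8.69 post-partum. Vaultrc5, a vault RNA, was 1.29 ± 0.18 higher. Of 55 small nucleolar RNA genes tested, which guide the modification of ribosomal RNA, 47 were higher, 27 without overlap (20.6% of all genes). The median was 0.54 (0.36 without day 12 replicate 2). This list and that of microRNA genes were collected by gene name after values had been seen. For 25 of the 55 small nucleolar RNA genes both day 12 arrays lay below all post-partum and diestrus arrays, where 6.59% of all genes did. For 0 did both post-partum arrays lie above all day 12 and diestrus arrays (12.1% of all genes). Snord99 is an example: 6.94 and 6.89 at day 12, 8.52 and 8.97 post-partum, 8.55 and 9.10 in diestrus. In Snord99 the day 12 pair stood apart, whereas in Tnc, Ccl2 and Cdk1 the post-partum pair did.

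MicroRNA precursor genes showed no common direction: of 115 tested, 50 were higher and 65 lower, 13 and 32 without overlap, beside 20.6% and 26.3% of all genes. The let-7 genes are shown because their 5p (5′ arm) products have the same seed, the bases that pair with targets. The seeds of their 3p (3′ arm) products differ. Mirlet7c-1 and Mirlet7a-1 nevertheless read on opposite sides, at levels near or under the filter. Mirlet7c-1 read 5.11 and 5.37 at day 12 and 4.12 and 3.84 post-partum. Mirlet7a-1 read 4.55 and 4.74 at day 12 and 5.17 and 5.29 post-partum. Mir181b-1 read 5.25 and 5.14 at day 12 and 4.00 and 4.41 post-partum. Each of the 3 passed the filter level of 5.19 through 1 group only, so their sizes of difference are not given, and the arrays do not separate precursor from mature forms. The mature sequences from RefSeq (GRCm38.p6) have the seed, bases 2 to 8, in capitals.
let-7a-5p: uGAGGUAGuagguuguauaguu
let-7c-5p: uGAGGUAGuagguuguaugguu
miR-181b-5p: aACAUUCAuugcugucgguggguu
Counted from the 5′ end, let-7a and let-7c differ by A19G, outside the seed.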

How the data were processed

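Left ventricle RNA was measured on 1-colour Affymetrix arrays. The deposited values are log2 expression on the RMA scale; the submitters' processing notes name Expression Console as the authors' software, without a version. This comparison rests on probe set names and needed no genome coordinates. No scanner files were used. Of 34365 probe sets, 23521 had 1 gene symbol in the platform annotation, 1814 had several and 9030 were not listed; a gene was read from its probe set of highest mean over the 8 arrays, giving 22180 genes. Genes whose mean reached the median of all values (5.19) in either group were tested: 13485. limma 3.58.1 in R 4.3.3 (lmFit and eBayes, two-sided) was fitted to the 4 arrays, 2 a group, with no covariate, and p-values were adjusted by Benjamini-Hochberg over all genes tested, with a threshold of 0.05. The fit was tested on simulated data. Python 3.11.15 was used for lists and sequences. Errors are limma standard errors; 2 arrays a group limit the precision. A gene passing the filter through 1 group only had to differ, so counts over members tested are descriptions.

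The members and lists were chosen with earlier results of these data known. Named genes were the 12 largest higher and 12 largest lower at an unadjusted p under 0.01, without predicted, numbered small RNA and receptor-family genes, up to 3 members of each of 49 lists with the smallest p under 0.05, and a preset set. Other members named, among them Thbs2, Dcn, Cd36, Acot2, Acta2 and H2-Ob, and the small RNA genes were picked after their values were seen. Of 16 cell type lists, those that bear on a result are given beside it. Some genes of the preset set are not reported here. Promoter and microRNA sequences were read from RefSeq tables (GRCm38.p6), with 6 motifs searched; promoter windows were listed for 27025 genes. Alternatives were other sets of arrays, variance models, filters, scalings, probe set means and leaving out each array.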

Additional observations from a re-analysis of the deposited data

How the results depend on the processing

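Under the 13 alternatives, the count of genes with an adjusted p under 0.05 by limma was 0 in 9 of them. It was 2 with 6 arrays in the fit, and between 0 and 762 when single arrays were left out. The count of genes at least 2-fold apart without overlap was 63, between 61 and 80 with other scalings, probe set means or no filter, 41 under the stricter filter, and between 72 and 240 when single arrays were left out. Of the 128 genes chosen by the naming rules, 2 changed sign, and neither was separated between the groups. Myh6 ran from -0.0055 without day 12 replicate 3 to 0.149 without day 12 replicate 2. Serpina3n ran from -0.0414 without post-partum replicate 4 to 0.476 without post-partum replicate 2. Members named outside those rules were not counted here. Some of them changed sign when 1 array was left out, among them Bdh1 and Pcna, whose groups overlapped. Scaling moved the median of all genes to between -0.06 and -0.01. No paired analysis was possible because the groups share only replicate number 2, and nothing in the labels says that this number marks a shared animal or day. Low values near background limit what can be read for microRNA genes and H1f5.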

Other observations

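Cyp2b10, a drug-metabolising cytochrome, read 5.27 and 5.52 at day 12 and 4.33 and 4.65 post-partum, where its mean lay under the filter level, with 5.29 and 4.81 in diestrus. Prxl2a, a peroxiredoxin-like protein, read 9.34 and 9.69 at day 12 and 8.23 and 8.85 post-partum, with 9.57 and 9.58 in diestrus. Rpl13, a ribosomal protein gene, was 0.93 ± 0.31 higher by its brighter probe set, 0.42 without post-partum replicate 2, and 0.05 higher by its dimmer one. Of 26 ribosomal protein genes, 17 were higher and 9 lower, with a median of 0.16. Of 24 immediate-early genes, 15 were higher, 10 without overlap (20.6% of all genes). Egr3 read 5.50 and 5.52 at day 12 and 6.24 and 6.03 post-partum. Klf6 was the member lower at an unadjusted p under 0.05, at -0.42 (-0.27 without post-partum replicate 2). Of 24 genes of vascular growth, 7 were higher and 17 lower; Nrp2, a receptor for VEGF-C and semaphorins, was 0.49 ± 0.13 higher and Flt4, the VEGF-C receptor, was 0.35 ± 0.13 higher.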
